A study of Homo sapiens with 4 samples.

Results

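The centromere, kinetochore and spindle checkpoint genes examined here are 41 genes taken by a list of symbols, with no use of their measured values. All of their listed transcripts were followed, 346 of the 227368 transcripts in the table of raw counts. RNA was sequenced from 2 groups of H1299, a human line grown from a non-small cell carcinoma of the lung. The cells of the first group received 5 μM HgCl2 for 48 h, and the cells of the control group received the solvent EtOH for 48 h. The treatment text of the labels gives 5 μM HgCl2 for all 4 samples, and the control group was recognised by its title, EtOH. Both groups are the same line at 1 dose and 1 time, so other lung cells, doses and times were not compared. Poly-A RNA was made into TruSeq libraries, and the tables hold 2 columns for each group.

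The centromere is the stretch of chromosome marked by nucleosomes that carry the histone variant CENP-A, and the kinetochore is the protein structure built on it in mitosis. A constitutive network of CENP proteins binds the CENP-A chromatin throughout the cell cycle. In mitosis the MIS12, KNL1 and NDC80 complexes join it and hold the ends of spindle microtubules. Kinetochores without microtubules recruit BUB and MAD proteins, which hold back the anaphase promoting complex until every chromosome is attached. Most of these genes are known for raised RNA in G2 and mitosis, so that in cultured tumour cells their level in bulk RNA follows the share of dividing cells.

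The columns summed to 5051958 and 5053120 counts in EtOH and to 4722772 and 4720978 counts in HgCl2. Within each group the columns differed by less than counting noise: the variance of their difference was 0.505 of that expected from counting in EtOH and 0.516 in HgCl2, against 31.9 between EtOH replicate 1 and HgCl2 replicate 1. Each group was therefore counted as 1 sample. No test of the treatment was possible, no p-value is given, and every log2 fold change (HgCl2 over EtOH) describes these libraries. The 95% Clopper-Pearson intervals beside them use the mean count of each group and cover counting error alone. Of the genes looked up as markers of H1299, a carcinoma line, VIM, which is not an epithelial marker, had 501 to 628 counts over the 4 columns. The epithelial keratin KRT18 had 18 to 31 counts. KRT8 had 53 and 58 counts in EtOH and 4 and 4 in HgCl2, and CDH2 had 13 and 13 in EtOH and 1 and 2 in HgCl2. The leukocyte marker PTPRC had 0 counts, the endothelial marker PECAM1 had 1 to 5, and the fibroblast markers COL1A1 and COL3A1 summed to 15 and 20 counts in EtOH and to 3 and 4 in HgCl2.

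Counts were found for 38 of the 41 genes and for 88 of the 346 transcripts. CENPM, SGO1 and SKA3 had 0 counts in every column. The other 258 transcripts without a count include many whose every exonic base is also part of another listed transcript. Of the 145 member transcripts with no base of their own, 1 had a count. In 26 genes at least 1 protein-coding transcript has an uninterrupted stretch of 150 or more own bases, and these genes hold 99.2% of the member counts. The 15 genes without such a stretch hold 0.791%, and 10 of them (CENPA, CENPH, CENPM, CENPO, CENPT, DSN1, NUF2, PMF1, SGO1 and SKA3) have no count on any protein-coding transcript. A value near 0 for these genes is thus a value for the bases that could be counted, and it gives no level of the gene.

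As a share of all counts, the 41 genes took 0.472% (95% exact binomial interval 0.466 to 0.478) and 0.471% (0.465 to 0.477) of the EtOH columns. In the HgCl2 columns they took 0.333% (0.328 to 0.338) and 0.337% (0.332 to 0.343). The intervals of the groups do not overlap, but they cover counting error alone, and the share of no other set of genes was compared. The 3 transcripts with the most member counts, those of CENPF, NDC80 and BUB3, held 65.4% of the member counts in EtOH and 56.3% in HgCl2. All members summed to 23844 and 23799 counts in EtOH and to 15732 and 15924 in HgCl2. Most of that difference lay in 2 genes, CENPF (7822 and 7907 against 3164 and 3245) and NDC80 (4679 and 4643 against 2332 and 2320). BUB3 was not lower (3273 and 3200 against 3421 and 3458). In bulk RNA fewer mitotic cells and less RNA per cell cannot be told apart. The proliferation markers were lower in HgCl2 as well: MKI67 had 123 and 122 counts in EtOH and 13 and 23 in HgCl2, and TOP2A had 10821 and 11075 against 6285 and 6341. Their sum was 10944 and 11197 in EtOH and 6298 and 6364 in HgCl2, and the part that a change in dividing cells had in the member values was not tested.

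Fold changes were fitted for the 17547 transcripts whose mean FPKM was over 1 in EtOH or HgCl2. These include 50 member transcripts, from 26 genes. The other 38 counted member transcripts had a mean of at most 9.25 counts. Among the 50, 24 (48%) were at least 2-fold lower in HgCl2 and 5 (10%) at least 2-fold higher, where 34.1% and 19.2% of all fitted transcripts were. The median log2 fold change was -0.89 for the members and -0.21 for all. These counts carry little about the members, since 19 of the 50 passed the filter through EtOH alone and 2 through HgCl2 alone. With 4 of the fitted transcripts at 0 in both HgCl2 columns and 1 at 0 in both EtOH columns, the median was -0.80 when those groups were set to 3 counts.

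The spread varied with depth. Under a mean of 30 counts over the 4 columns, 50.9% of all fitted transcripts were at least 2-fold lower and their median was -1.04, and the 31 members of that class had a median of -1.73. Among the 2712 transcripts with a mean of 200 or more, 2.03% were at least 2-fold lower and 4.65% at least 2-fold higher, with a median of 0.21. Of the 9 members in this class, 1 (CENPF, 11.1%) was at least 2-fold lower and 0 were higher, with a median of -0.35, and 6 of the 9 lay below the median of the class. This class was set on the mean over all columns, so it does not favour the group in which a transcript is high. A mean of 30 or more counts in EtOH or HgCl2 was reached by 8545 transcripts, of which 13.2% were at least 2-fold lower and 21.3% at least 2-fold higher. There the 25 members had 7 lower (28%) and 3 higher (12%), and a median of -0.35 against 0.23 for all. This choice favours the group in which a transcript is high: 6 of the 7 lower members reached 30 counts in EtOH alone and 2 of the 3 higher ones in HgCl2 alone, so CENPF and CENPL are the only members at 2-fold that reached it in both groups. The counting interval lay wholly below 0 for 13 of these 25, wholly above 0 for 6, and held 0 for 6. The same tally was not made for all 8545 transcripts, whose median was 0.23 and not 0. These 3 counts are therefore a description and set the members apart from no other genes.

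**Figure D1:**
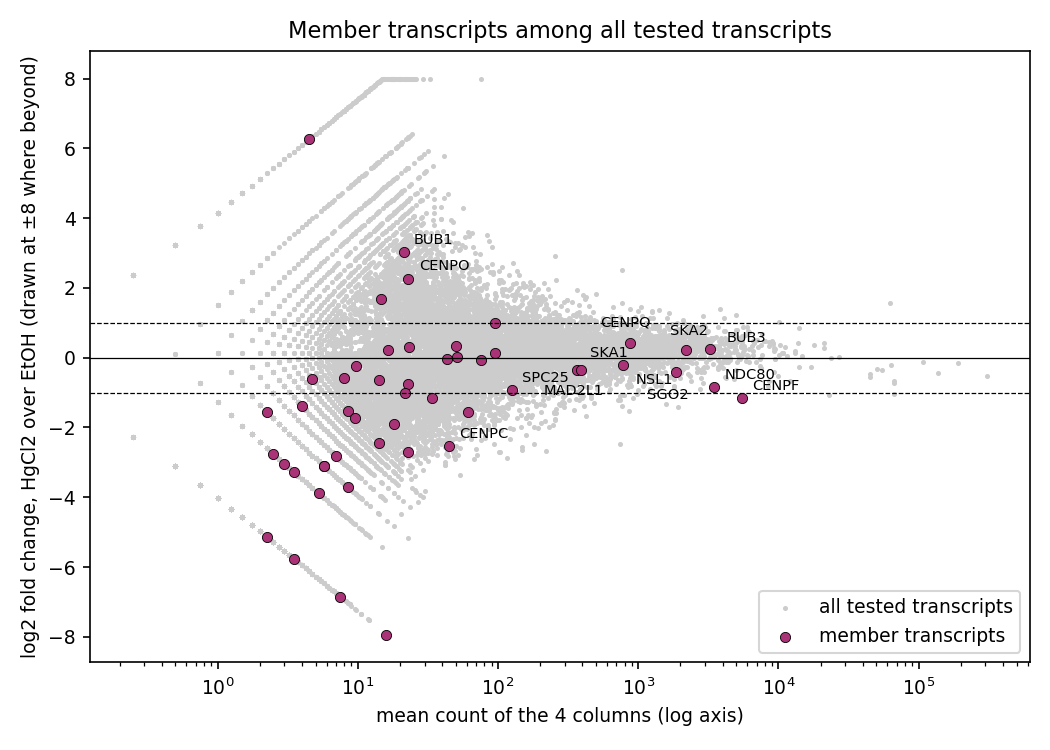
Log2 fold change (HgCl2 over EtOH, vertical) against the mean count of the 4 columns (horizontal, log axis) for all 17547 fitted transcripts in grey and the 50 member transcripts in purple. The dashed lines mark 2-fold, values beyond 8 are drawn at 8, and labels give the member genes with a mean of at least 100 counts (CENPL, at 96.0, has none) plus CENPC and the retained-intron transcripts of BUB1 and CENPO. The spread narrows with the count, and CENPF and NDC80 sit at -1.15 and -0.85 where the quartiles of all transcripts with 200 or more counts are -0.11 and 0.49.

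The members with the most counts were not lower as a block. CENPF, NDC80, SGO2, MAD2L1, SKA1 and, less, NSL1 were lower in HgCl2, whereas BUB3, SKA2 and CENPQ were as high or higher. Because the median of well-counted transcripts stood at 0.21, the log2 fold change minus that median is given for these members too. It was -1.36 for CENPF, -1.06 for NDC80, -0.61 for SGO2, -0.57 for MAD2L1, -0.56 for SKA1 and -0.42 for NSL1. For SKA2 it was 0.02, for BUB3 0.05 and for CENPQ 0.21, so these 3 lay near or above the middle of their class. CENPF was lower than all but 1.33% and NDC80 lower than all but 2.91% of the 2712 transcripts.

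Levels of different genes were compared as counts per kilobase of own sequence, a scale that depends on the annotation as well as on the level. It fails on short own sequence: CENPN ENST00000562943 reached 1500 in EtOH from 4.5 counts on 3 own bases. The order of genes within a group is therefore a rough description. The 9 members with 200 or more counts are ranked here. In EtOH the order was NDC80 (3446), SKA2 (1054), CENPF (907), SGO2 (596), BUB3 (497), CENPQ (452), SKA1 (284), MAD2L1 (109) and NSL1 (77.7). In HgCl2 it was NDC80 (1732), SKA2 (1121), CENPQ (546), BUB3 (539), SGO2 (410), CENPF (369), SKA1 (201), MAD2L1 (76.6) and NSL1 (60.8). CENPF thus moved from the third to the sixth place among these 9, while BUB3 and CENPQ stood next to each other in both groups. At the low end the mean count of CENPB was 12 in EtOH and 6.5 in HgCl2 on 2890 own bases, and CENPP had 9.0 and 4.5, although its longest own stretch in a coding transcript is 3428 bases.

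**Figure D2:**
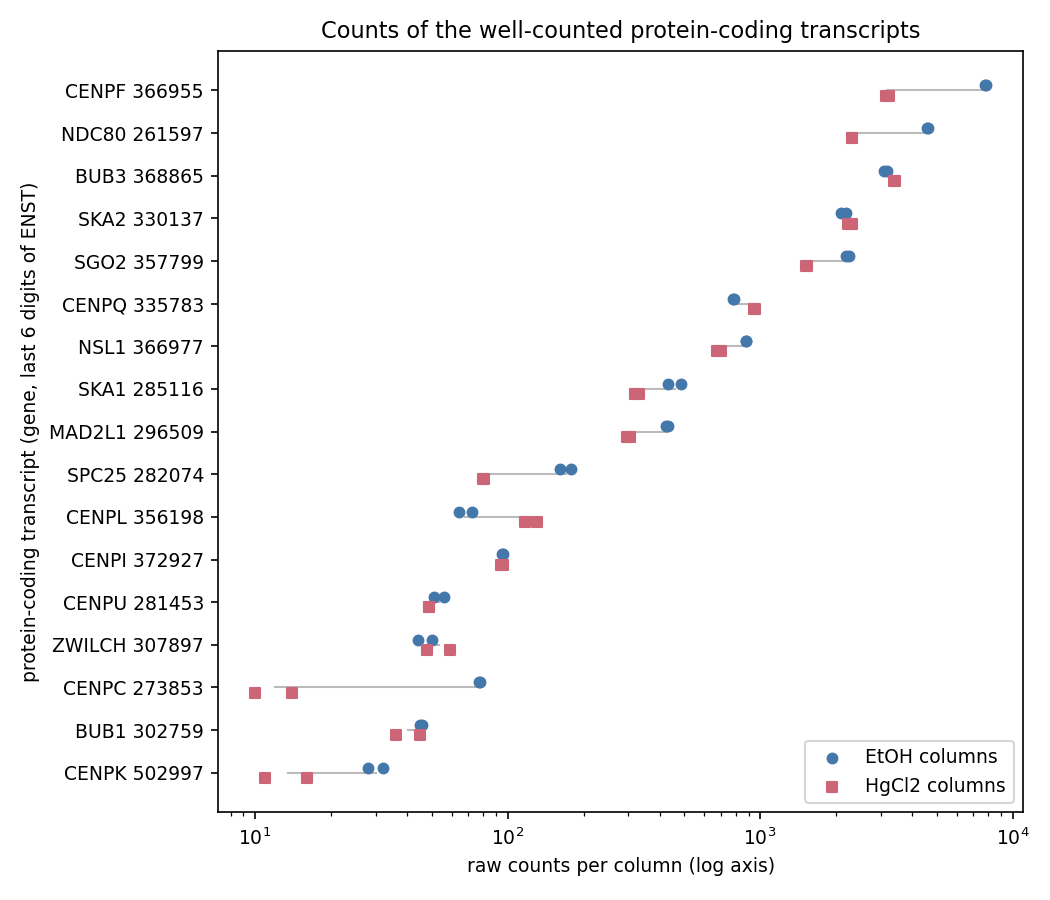
Raw counts in each column (horizontal, log axis) of the 17 protein-coding member transcripts that reach a mean of 30 counts in a group, EtOH as blue circles and HgCl2 as red squares, with a grey line between the group means. The columns of a group nearly coincide, CENPF has 7789 and 7875 counts in EtOH and 3148 and 3226 in HgCl2, and CENPL, CENPQ, BUB3 and SKA2 have their squares to the right of their circles.

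At the base of the structure, CENPC binds the CENP-A nucleosome and carries the outer kinetochore. Its protein-coding transcript ENST00000273853 (chr4:67468762-67545503, minus strand, GRCh38) had 78 and 77 counts in EtOH and 10 and 14 in HgCl2. The columns do not overlap, and the log2 fold change was -2.54 (interval -3.56 to -1.66). In its count class, means from 30 up to 200, 0.819% of 4395 transcripts were lower. Its mean FPKM was 2.07 in EtOH and 0.40 in HgCl2, so it passed the filter through EtOH alone. That rank is therefore a description and no support for the change. Summed over its transcripts, CENPC went from 105 and 107 counts to 18 and 22 (-2.26, -3.03 to -1.57). CENPA, the histone variant itself, was counted on 1 transcript of the class degraded by nonsense-mediated decay, with 16 and 14 counts in EtOH and 0 and 0 in HgCl2. That transcript was at least 4.53-fold lower against a floor of 3 counts per group mean, with a counting interval that ends at -1.70 on the log2 scale. It says nothing of the protein-coding transcripts, which have no own stretch. CENPB, which binds the CENP-B box of alpha satellite DNA, had 11 and 13 counts in EtOH and 6 and 7 in HgCl2.

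The 12 genes of the constitutive network around CENPC summed to a mean of 1199 counts in EtOH and 1394 in HgCl2, and of 13 fitted transcripts 4 were at least 2-fold higher and 4 at least 2-fold lower, with a median of 0.02. The share of 4 in 13 is above the 19.2% of all fitted transcripts that were higher and below the 34.1% that were lower. It rests on few transcripts and sets the network apart in neither direction. CENPQ, which binds microtubules together with its partner CENPU, had 789 and 784 counts in EtOH and 942 and 958 in HgCl2 (0.42, 0.28 to 0.55). CENPL, which forms a dimer with CENPN, was at 72 and 64 counts in EtOH and at 117 and 131 in HgCl2 on its protein-coding transcript ENST00000356198 (1.01, 0.57 to 1.46). Both HgCl2 columns lay above both EtOH columns, but the value stood at the 2-fold line. The non-coding CENPL transcript ENST00000495275 had 89 and 73 against 77 and 62 counts (-0.08, -0.56 to 0.40), so the coding transcript made up 45.6% of the CENPL counts in EtOH and 64.1% in HgCl2.

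CENPI, of the CENP-HIKM group, had 95 and 96 counts in EtOH and 94 and 96 in HgCl2 (0.14, -0.29 to 0.56). CENPU, a docking protein for the kinase PLK1, had 56 and 51 against 49 and 49 on its protein-coding transcript (0.02, -0.57 to 0.60). Neither coding transcript differed beyond counting error, and changes of the size given by these intervals cannot be told from none. CENPK, also of the CENP-HIKM group, was lower, with 28 and 32 counts in EtOH and 11 and 16 in HgCl2 (-1.0, -2.05 to -0.04). That value lay 0.04 above the median of its count class, under 30 counts, which was -1.04, so it was typical for its depth. CENPO is described with the retained-intron transcripts below. The other members of the network were at the limit of detection. CENPP had 9 and 9 against 4 and 5 counts, CENPW had 4 and 4 against 1 and 1, CENPN had 9 and 7 against 1 and 1, and CENPH and CENPT had at most 2 counts in a column.

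In the MIS12 complex, which joins the inner to the outer kinetochore, NSL1 alone was well counted. It had 876 and 880 counts in EtOH and 697 and 677 in HgCl2 on ENST00000366977 (-0.21, -0.36 to -0.06). DSN1 was counted on its retained-intron transcript ENST00000480153, with 43 and 37 counts in EtOH and 6 and 5 in HgCl2 (-2.69, -4.33 to -1.43). MIS12 itself had 16 and 16 against 1 and 1 counts on a transcript without a defined coding sequence (-3.71, -9.25 to -1.17), and PMF1 had 4 and 4 against 3 and 2 in all. KNL1, the scaffold of the checkpoint, summed to 19 and 10 counts in EtOH and 1 and 1 in HgCl2 (-3.57, -9.12 to -1.01). Its partner ZWINT had 6 and 7 counts in EtOH and 0 and 0 in HgCl2. All 6 genes of the 2 complexes had lower raw sums in HgCl2, whose columns also held fewer counts in total. The share of all genes with a lower raw sum was not computed, so this tally sets the 6 apart from no other genes. Only the sum of NSL1 rested on a coding transcript with more than 30 counts. Lower values were common at low depth. Of all fitted transcripts under a mean of 30 counts, 50.9% were at least 2-fold lower, with a median of -1.04.

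The NDC80 complex is the main microtubule coupler of the kinetochore, a rod of NDC80, NUF2, SPC24 and SPC25. NDC80 transcript ENST00000261597 (chr18:2571557-2616635, plus strand, GRCh38) had 4630 and 4592 counts in EtOH and 2322 and 2312 in HgCl2. The counts differed far beyond counting error, with a log2 fold change of -0.85 (-0.92 to -0.78), a 1.80-fold lower level. SPC25, which anchors the rod to MIS12, had 161 and 179 counts in EtOH and 80 and 81 in HgCl2 on ENST00000282074 (chr2:168870891-168890430, minus strand), a log2 fold change of -0.93 (-1.34 to -0.54). Its partner SPC24 had 23 and 21 against 26 and 23 counts (0.30, -0.59 to 1.20), and the groups lay within counting error of each other. NUF2 was counted on retained-intron transcripts and 1 other. The most counted of them, ENST00000527120, had 28 and 36 counts in EtOH and 0 and 0 in HgCl2 and was at least 9.66-fold lower against the same floor, with an interval that ends at -2.89. Of the 11 fitted transcripts of the complex 8 were at least 2-fold lower and 0 higher, with a median of -2.44, where 34.1% of all fitted transcripts and 50.9% of those under 30 counts were at least 2-fold lower. The 3 minor NDC80 transcripts, with 10 to 25 counts a column in EtOH and 1 to 5 in HgCl2, are part of that count, and with those of NUF2 and a minor one of SPC25 the 8 all lie under a mean of 30 counts.

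The SKA complex tracks microtubule ends together with NDC80. SKA1 had 486 and 433 counts in EtOH and 321 and 331 in HgCl2 (-0.35, -0.56 to -0.14). SKA2 had 2098 and 2180 against 2232 and 2318 (0.23, 0.15 to 0.32), 0.02 above the median of its count class. The intervals of the 2 genes do not overlap, although the proteins work in 1 complex. The summed counts of the complex were 2599 in EtOH and 2601 in HgCl2, mostly from SKA2.

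CENPF is a large coiled-coil protein of the nuclear matrix in G2 and of the fibrous corona, the outermost layer of the kinetochore. Its protein-coding transcript ENST00000366955 (chr1:214603195-214664571, plus strand, GRCh38) was the most counted of all members, with 7789 and 7875 counts in EtOH and 3148 and 3226 in HgCl2. It was 2.22-fold lower, a log2 fold change of -1.15 (-1.21 to -1.09). The non-coding CENPF transcript ENST00000467765 had 30 and 30 against 15 and 17 counts (-0.76, -1.74 to 0.16). CENPE, the kinesin of the corona, summed to 4 and 2 counts in EtOH and 0 and 2 in HgCl2, which allows no comparison. ZWILCH belongs to the RZZ complex that brings dynein to the corona, and its main transcript had 50 and 44 counts in EtOH and 48 and 59 in HgCl2 (0.33, -0.26 to 0.93). ZW10, of the same complex, had 1 count in the 4 columns together.

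Among the checkpoint genes, BUB3, the WD-repeat protein that docks BUB1 and BUB1B to KNL1, had 3180 and 3105 counts in EtOH and 3390 and 3431 in HgCl2 on ENST00000368865 (chr10:123154402-123170467, plus strand, GRCh38). Its log2 fold change of 0.26 (0.19 to 0.33) was above 0 under every scaling tried, but 0.05 from the median of its class. MAD2L1, the protein that inhibits CDC20, was lower, with 423 and 433 counts against 298 and 305 (-0.36, -0.58 to -0.15). The kinase BUB1 had 46 and 45 counts in EtOH and 45 and 36 in HgCl2 on its protein-coding transcript ENST00000302759 (-0.02, -0.67 to 0.62). BUB1B, the pseudokinase of the checkpoint complex, summed to 9 and 9 against 3 and 3 counts. TTK, the kinase that starts the signal, was counted on a retained-intron transcript alone, with 15 and 17 against 15 and 19 counts (0.23, -0.84 to 1.31), and MAD1L1 had 1 count in all.

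SGO2, a shugoshin, which protects centromeric cohesin, had 2250 and 2193 counts in EtOH and 1539 and 1515 in HgCl2 on ENST00000357799 (-0.40, -0.49 to -0.30). CENPJ bears a CENP name but builds centrioles. It was counted mostly on a transcript without a defined coding sequence, ENST00000493190, with 52 and 45 counts in EtOH and 22 and 17 in HgCl2 (-1.17, -2.01 to -0.39). Its protein-coding transcript ENST00000418179 had 7 and 15 against 10 and 7 counts (-0.23, -1.71 to 1.20).

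**Figure D3:**
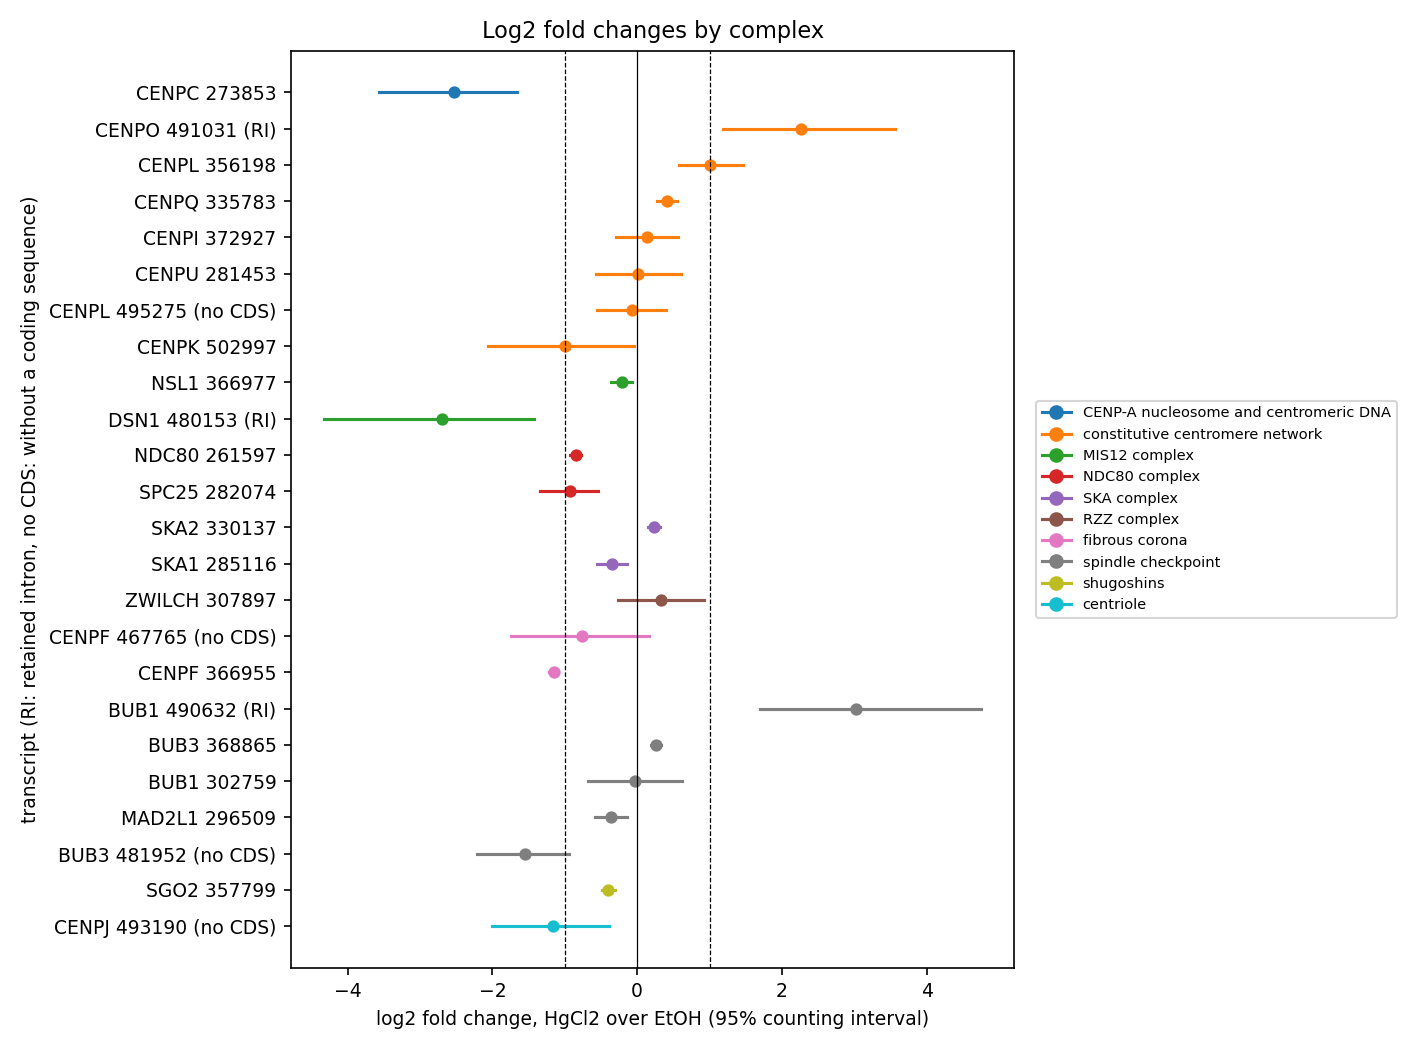
Log2 fold change (HgCl2 over EtOH, horizontal) with its 95% counting interval for 24 of the 25 member transcripts that reach a mean of 30 counts in a group, coloured by complex (NUF2 ENST00000527120, at 0 counts in HgCl2, has no lower bound and is left out). Dashed lines mark 2-fold. NDC80 and CENPF have narrow intervals wholly below 0, BUB3, SKA2 and CENPQ narrow intervals wholly above 0, and the widest intervals belong to retained-intron transcripts of BUB1, DSN1 and CENPO.

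Summed over all transcripts, 27 member genes had a mean of at least 10 counts in a group. Of these, 7 (25.9%) were at least 2-fold lower, where 25.1% of 10366 genes were, and 1 (3.70%) at least 2-fold higher, where 13.9% were. The median log2 fold change was -0.38 for the members and -0.05 for all genes. The 7 lower genes were CENPA, CENPC, CENPF, DSN1, KNL1, MIS12 and NUF2, and the higher gene was CENPO. The member share of lower genes is thus close to the background. Of these 8 genes, CENPC and CENPF alone had a protein-coding transcript with a mean over 30 counts in a group.

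The start regions of the genes were examined for the sequence elements of cell cycle promoters. The cell cycle homology region (TTTGAA or TTCGAA) is bound by the DREAM and MuvB complexes at genes of G2 and mitosis, and the CCAAT box is bound by NF-Y. Both were searched on both strands, from 250 bases before to 50 bases after the RefSeq start (GRCh38.p14), so that TTCAAA and ATTGG counted as well. TTCGAA reads the same on both strands, and the 2 elements can share at most 1 end base. RefSeq promoters were at hand for 34 of the 41 genes. The first element was found for 17 of them (50%), against 19.5% of 27305 genes and 15.9% of the 6453 genes with a fitted transcript. A CCAAT box was found for 21 (61.8%), against 39.7% and 42.7%, and both elements for 11 (32.4%), against 7.85% and 7.16%. Below, 5 promoters are shown from 110 bases before to 30 bases after the start, 5′ to 3′ on the strand of the gene, with matches in capitals. NDC80, CENPF and SPC25 stand for members at -0.85 to -1.15, and SKA2 and CENPQ for members at 0.23 and 0.42. The 5 are examples, and whether the element goes with the direction of a gene was not tested.
NDC80: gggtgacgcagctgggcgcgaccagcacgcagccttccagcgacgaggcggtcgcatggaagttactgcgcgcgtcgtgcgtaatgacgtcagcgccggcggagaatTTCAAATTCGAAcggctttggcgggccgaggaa
CENPF: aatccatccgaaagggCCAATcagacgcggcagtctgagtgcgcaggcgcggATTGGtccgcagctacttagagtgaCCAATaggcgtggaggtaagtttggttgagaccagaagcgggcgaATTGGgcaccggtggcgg
SPC25: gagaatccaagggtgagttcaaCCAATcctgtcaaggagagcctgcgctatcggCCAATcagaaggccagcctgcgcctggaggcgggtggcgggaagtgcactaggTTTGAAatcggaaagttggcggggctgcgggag
SKA2: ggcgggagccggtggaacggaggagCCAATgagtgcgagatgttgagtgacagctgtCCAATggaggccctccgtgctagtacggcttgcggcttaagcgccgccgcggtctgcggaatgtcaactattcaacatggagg
CENPQ: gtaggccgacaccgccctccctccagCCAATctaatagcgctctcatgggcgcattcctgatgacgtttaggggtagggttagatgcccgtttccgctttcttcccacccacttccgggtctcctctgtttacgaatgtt

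These are chr18:2571447-2571586 (plus strand) for NDC80, chr1:214603085-214603224 (plus) for CENPF, chr2:168890401-168890540 (minus) for SPC25, chr17:59155157-59155296 (minus) for SKA2 and chr6:49463260-49463399 (plus) for CENPQ. In NDC80, TTCAAA at -3 is followed directly by TTCGAA at 4, counted from the start as 1. In SPC25, TTTGAA lies at -3 with CCAAT boxes at -88 and -56. The CENPF window shows 4 CCAAT boxes in either orientation, and its TTTGAA lies past the stretch printed, at 41. SKA2 and CENPQ hold CCAAT boxes and no match to the other element in the whole searched region. At the gene level CENPO, at 2.57, holds the cell cycle element and DSN1, at -2.70, does not. Both were counted on retained-intron transcripts alone. Of the members on coding transcripts, CENPK (-0.95), SGO2 (-0.40) and NSL1 (-0.22) were below 0 without the element, and BUB1, at -0.02, holds it. A match of letters is no binding site.

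Within genes, transcripts did not always share a direction. Of 16 genes with at least 2 fitted transcripts, 11 had at least 2-fold lower transcripts only, CENPL and CENPO had higher ones only, 1 had none, and BUB1 and CENPU had both. Of all 3294 such genes 40.3% had lower transcripts only, 22.4% higher only, 22.8% both and 14.6% none. The clearest case was BUB1, whose gene sum was 93 and 102 counts in EtOH and 87 and 88 in HgCl2 (-0.02, -0.45 to 0.42). Its retained-intron transcript ENST00000490632 had 5 and 5 counts in EtOH and 35 and 40 in HgCl2 (3.02, 1.70 to 4.75), going from 5.13% to 42.9% of the BUB1 counts. Another retained-intron transcript, ENST00000465029, went the other way, with 25 and 34 counts against 6 and 8 (-1.91, -3.37 to -0.71), from 30.3% to 8.0%. The protein-coding transcript held 46.7% and 46.3%. CENPU showed the same kind of exchange at lower counts, with 9 and 6 against 24 and 20 counts for ENST00000506535 (1.68, 0.45 to 3.12) and 9 and 11 against 1 and 0 for the retained-intron transcript ENST00000502461 (-3.89, -14.3 to -0.65).

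CENPO, a network protein near CENPQ and CENPU, was counted on retained-intron transcripts alone. ENST00000491031 had 7 and 10 counts in EtOH and 40 and 35 in HgCl2 (2.27, 1.19 to 3.56). ENST00000486527 had 0 and 0 counts in EtOH and 9 and 9 in HgCl2, at least 3.31-fold higher against the floor of 3 counts, with a counting interval that starts at 1.12 on the log2 scale. BUB3 had, beside its main transcript, the short ENST00000481952 that ends in an intron, with 93 and 95 counts in EtOH and 31 and 27 in HgCl2 (-1.55, -2.21 to -0.94), 2.90% of the BUB3 counts in EtOH and 0.843% in HgCl2. The libraries were made from poly-A RNA, and reads of spliced RNA, of unspliced RNA and of RNA ended within an intron cannot be told apart in these counts. Over all 15 fitted retained-intron members, 9 were at least 2-fold lower and 3 higher, with a median of -1.56. Of the 3993 retained-intron transcripts fitted in all, 35.7% were lower and 25.1% higher, with a median of -0.23. The 26 protein-coding members had 9 lower and 1 higher, with a median of -0.38. Of all 6157 protein-coding ones 22.3% were lower and 13.3% higher, with a median of 0.00. The retained-intron members had a median of 8.0 counts and the coding ones 50.75, so the classes differ in depth as well.

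**Figure D4:**
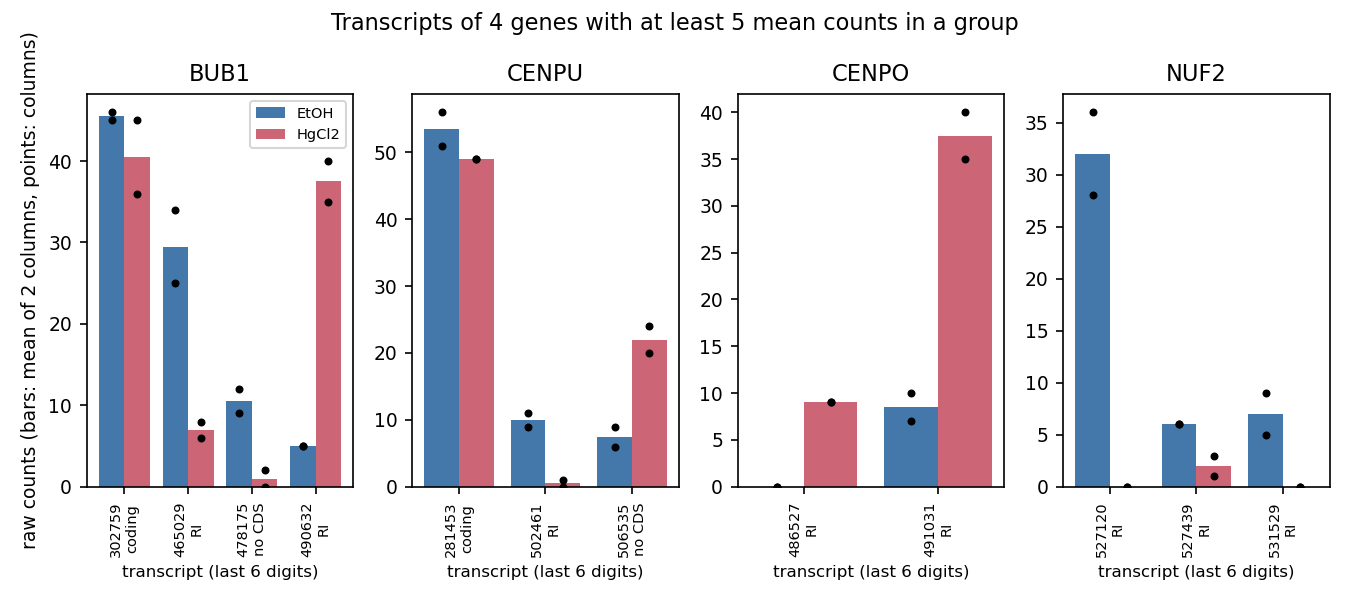
Raw counts of the transcripts of BUB1, CENPU, CENPO and NUF2 that reach a mean of 5 counts in a group, with bars for the mean of the 2 columns (EtOH blue, HgCl2 red) and points for the columns. In BUB1 the coding bars are level (45.5 and 40.5) while ENST00000490632 goes from 5.0 to 37.5 and ENST00000465029 from 29.5 to 7.0, CENPO has counts mainly in HgCl2, and NUF2 mainly in EtOH.

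The exon-intron borders that make these transcripts countable are shown because the values above rest on bases past them. Each line holds 30 exonic and 90 intronic bases of GRCh38 on the strand of the gene, 5′ to 3′, with the GT of a donor or the AG of an acceptor in capitals.
BUB1: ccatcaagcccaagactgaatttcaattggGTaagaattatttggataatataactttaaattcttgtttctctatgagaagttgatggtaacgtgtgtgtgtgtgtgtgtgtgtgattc
CENPO: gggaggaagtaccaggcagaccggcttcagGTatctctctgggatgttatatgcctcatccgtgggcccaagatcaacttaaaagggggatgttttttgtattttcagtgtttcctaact
BUB3: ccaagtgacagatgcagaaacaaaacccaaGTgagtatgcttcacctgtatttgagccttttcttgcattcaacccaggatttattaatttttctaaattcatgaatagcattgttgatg
NUF2: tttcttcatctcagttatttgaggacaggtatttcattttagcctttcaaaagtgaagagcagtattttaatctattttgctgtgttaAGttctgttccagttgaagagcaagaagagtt

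The BUB1 border is the donor at chr2:110649144-110649263 (minus strand), and ENST00000490632 has 417 own bases in the intron behind it. For CENPO it is the donor at chr2:24815727-24815846 (plus strand), with 815 own bases of ENST00000491031. For BUB3 it is the donor at chr10:123162799-123162918 (plus strand), with 413 own bases of ENST00000481952. NUF2 ENST00000527120 starts in an intron and runs into the exon behind the acceptor at chr1:163339291-163339410 (plus strand), with 100 own bases. Own bases are those that no other listed transcript covers on either strand. Whether reads from the other strand were counted there was not tested.

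The rest of the pathway was read from 7 lists of 62 other genes, of which 43 had a fitted transcript. Of their 91 transcripts 32 were at least 2-fold lower and 17 higher, with a median of -0.39, close to the 34.1% and 19.2% of all fitted transcripts. Of the 52 that reach a mean of 30 counts in a group 7 were lower and 14 higher, where 13.2% and 21.3% of all such transcripts were. The single lists below hold at most 12 such transcripts each, and their counts are given as descriptions only. Among checkpoint and mitotic regulators 4 of 12 such transcripts were lower and 1 higher. The lower ones came from SPDL1 and HASPIN alone, with SPDL1 ENST00000503209 at -1.15 and ENST00000508837 at -2.10 beside its main transcript. SPDL1, which brings dynein to the kinetochore through RZZ, had 2297 and 2345 counts in EtOH and 821 and 840 in HgCl2 (ENST00000265295, -1.34, -1.46 to -1.22). HASPIN, the kinase that marks centromeric histone H3, had 104 and 88 against 18 and 17 (-2.30, -3.14 to -1.57). A short coding transcript of KNTC1, the large subunit of RZZ, had 6 and 4 against 31 and 29 counts (ENST00000436959, 2.70), beside 581 and 530 against 411 and 434 on ENST00000333479 (-0.25).

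Among cohesin and separase genes 2 of 8 were lower and 1 higher. CDCA5, the cohesin protector sororin, had 412 and 403 against 152 and 137 counts (-1.35, -1.64 to -1.08), a coding transcript of PDS5A, a cohesin regulator, was at -1.75, and one of RAD21, the cohesin subunit cut at anaphase, at 1.68. Of 12 transcripts of the anaphase promoting complex 3 were higher and 0 lower, the 3 being retained-intron transcripts of ANAPC4 (1.11 and 1.23) and ANAPC7 (1.79). Among microtubule proteins of the kinetochore 3 of 5 were higher and 1 lower, and those of CLASP1, CLASP2 and NDEL1 are retained-intron transcripts. CLASP1 ENST00000472776 went from 2 and 1 counts to 64 and 70 (5.51, 3.47 to 9.45), CLASP2 and CLIP1 were at 2.29 and 1.64, and NDEL1 at -1.09. The other constitutive centromere proteins had 4 higher and 0 lower of 6, all without a defined coding sequence, with 3 from ITGB3BP (CENP-R), the most counted of them at 19 and 18 against 137 and 125 counts (2.96), and 1 from CENPV (2.53). Of 9 transcripts for CENP-A loading 2 were higher, from NASP (1.14) and RBBP7 (1.18), and 0 lower. The chromosomal passenger complex was fitted for BIRC5 alone, whose 2 transcripts had 5 to 9 counts in EtOH and 0 in HgCl2.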

How the data were processed

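Tables covering all 4 RNA-seq samples, with 2 columns per group, were used, and columns were assigned by their names. The authors used Trim Galore for trimming, aligned the reads with STAR 2.5.4b to GRCh38, and counted them per transcript with Rsubread. The deposited counts are raw. The study calls its RNA-seq directional, and the options of the counting step, strand included, are not given in the sources used here. FPKM was computed by the authors with the function of DESeq2 1.26.0 and deposited as a further table.

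Transcripts were named with GENCODE 44, in which 223558 of 227368 identifiers were found. Log2 fold changes were fitted with edgeR 4.0.16 (glmQLFit, TMM, R 4.3.3) on the 17547 transcripts whose mean FPKM passed 1 in a group, and on 10366 genes that reach a mean of 10 counts in a group. A call is a 2-fold change. Own bases are exonic bases that no other listed transcript covers. Alternatives used DESeq2 1.42.0 and limma 3.58.1. The fit was checked on simulated counts.

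The members and the gene lists were chosen with earlier results of these data known. Named transcripts are the most counted of each member gene, plus members and listed genes that reach a mean of 30 counts in a group and change 2-fold. Transcripts of BUB1, CENPC, CENPF, CENPJ, CENPL, CENPO, CENPU and KNTC1 outside this rule were named after their values were seen.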

Additional observations from a re-analysis of the deposited data

How the results depend on the processing

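Each group is 1 sample, so counting error is the only error known, and transcripts under about 30 counts set most 2-fold calls. The 5 higher member transcripts became 11 with no filter, 3 under filterByExpr, 0 when every column had to reach 10 counts and 3 with a mean of 30 counts in a group. The 24 lower became 44, 15, 7 and 7. Their median log2 fold change of -0.89 became -0.99 with no filter, -0.58 under filterByExpr, -0.45 when every column had to reach 10 counts, -0.95 on total counts without TMM, -0.56 with limma on log2(FPKM + 1), and -0.80 with groups at 0 set to 3 counts, an alternative chosen after seeing the data. It ran from -0.93 to -0.83 when single columns were left out. These filters fit fewer or more transcripts, and for the other settings the cause was not tested. With protein-coding transcripts alone, 0 genes were higher and 3 lower, and the gene median of -0.38 became -0.26. It was -0.42 without TMM and -0.34 with DESeq2, and ran from -0.42 to -0.36 when single columns were left out.

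The median of all fitted transcripts moved with the filter and scaling, from -0.21 to -0.83 with no filter and to -0.03 with limma. The median of the members minus that of all fitted transcripts was -0.68, and -0.16 with no filter. The median of the 9 members with 200 or more counts stayed below that of their class on the log2 scale. The gap was 0.54 to 0.56 in every setting that kept all columns, and 0.48 to 0.59 when a column was left out. A change of filter or scaling shifts these members and their class by nearly the same amount. Such settings could hardly alter the gap and are no check of it. The gap is one of medians, and in the main fit 3 of the 9 members lay above the median of the class. Of 300 values of 28 named transcripts, 291 kept their sign, and the other 9 belong to the coding transcripts of BUB1, CENPI and CENPU, which lay near 0. CENPF went under 2-fold with limma (-0.97), CENPL and CENPK in 5 settings each, and CENPJ with limma and without HgCl2 replicate 2. Over all settings CENPL ran from 0.84 to 1.15, CENPK from -1.29 to -0.71 and CENPJ from -1.36 to -0.91. The coding transcript of CENPC ran from -2.80 to -1.13, and the value of -1.13, with limma, lay outside its counting interval. With the replicate block the median was -0.89 and no count of calls changed. The replicate numbers mark no shared culture in the labels.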
